A study of Mus musculus with 6 samples.

Results

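The 30 genes described here encode SR proteins and heterogeneous nuclear ribonucleoproteins (hnRNPs), the main families of RNA-binding proteins that decide which exons of a transcript are joined. They were chosen by symbol: 12 genes of the SR group (10 Srsf genes with Tra2a and Tra2b) and 18 Hnrnp genes, of 47069 genes in the table. All 30 were found, and all 30 passed the filter on low counts that left 14165 genes to test. RNA-seq was performed on myoblasts, the progenitors of muscle fibers, sorted as muscle stem cells from the muscle of mdx mice, which lack dystrophin and model Duchenne muscular dystrophy. Cells of both groups were thus dystrophic primary cells kept in culture, and no healthy cells were compared. The methods do not name the culture medium of the sequenced cells. One group received vehicle and the other received PSB-KD107, a synthetic agonist of the lipid receptor Gpr18, at 10 μM. The labels give a treatment of 2 days, whereas the methods describe an overnight treatment. There were 3 libraries in each group, numbered 1, 2 and 4 in the count table, from cells that the methods trace to different mice.

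SR proteins carry RNA recognition motifs and a tail rich in arginine and serine. Bound to exonic enhancers, they recruit the splicing machinery and favor exon inclusion, and their activity and entry into the nucleus depend on phosphorylation of the tail by SRPK and CLK kinases. Many hnRNPs bind exonic or intronic silencers and oppose them, although the effect of both families depends on where they bind. Muscle differentiation is known for a broad switch in alternative splicing, in which these factors act together with tissue-enriched regulators.

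Depth ranged from 30917613 to 48756794 counts per library, so that 3 counts corresponded to 0.0596 to 0.0962 CPM (counts scaled to a common library total with TMM factors). This floor covers counting error only, and all 30 genes lay far above it. PSB-KD107 library 4 stood apart from the other 5 libraries, being more than 2-fold above all of them for 485 genes and more than 2-fold below for 268, none of which was an SR protein or hnRNP gene. It also held 63 counts of Dmd, against 522 to 831 in the other libraries, and both libraries numbered 1 held fewer counts of Xist (253 and 373) than the others (10047 to 14091). Gpr18 had 0 counts in all 6 libraries. The summed level of 7 myoblast markers was 6598 to 6978 CPM with vehicle and 6471 to 7006 CPM with PSB-KD107. Des was the largest part of this sum in every library. Pax7, the marker of muscle stem cells, did not overlap between groups. It measured 68.8, 49.9 and 60.0 CPM with vehicle and 34.0, 26.8 and 35.1 CPM with PSB-KD107. All PSB-KD107 libraries were likewise below all vehicle libraries for 6.59% of all genes tested. The sum of 7 markers of differentiating muscle did not overlap between groups, at 28861 to 32236 CPM with vehicle and 22649 to 26631 CPM with PSB-KD107. Its largest part in every library was Myh3, the embryonic myosin heavy chain. The members of that list did not move as one: Myh3, Myog, Mymk and Mymx were lower in every treated library, Tnnt3 overlapped, and in PSB-KD107 library 4 Ckm (817.6 CPM) and Acta1 (8895 CPM) lay above every vehicle library (at most 424.7 and 7211 CPM). Markers of fibro-adipogenic cells (1.46 to 3.11 CPM against 1.60 to 9.85 CPM), endothelial cells (0.310 to 1.40 against 0.385 to 1.13) and leukocytes (2.3 to 4.82 against 0.660 to 6.56) were scarce, with Lum and Adgre1 at 0 in all libraries. Sums of 8 proliferation genes ranged from 88.3 to 270.6 CPM with vehicle and from 105.0 to 175.7 CPM with PSB-KD107. In RNA from a whole culture, fewer cells of a type and less RNA per cell cannot be told apart.

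The comparison asked how transcripts of splicing regulators differed after PSB-KD107 treatment, and whether SR proteins and hnRNPs differed in this. With PSB-KD107, 27 of the 30 genes had a lower fitted level (90.0%, against 50.1% of all genes tested). The differences were small, however, and none passed the edgeR test, which called 0.0% of all genes. All 12 SR protein genes were lower, with log2 fold changes from -0.23 to -0.04 and a median of -0.19. Of the 18 hnRNP genes, 15 were lower and 3 (Hnrnpa3, Hnrnpf and Hnrnph2) were higher, with log2 fold changes from -0.52 to 0.21 and a median of -0.13. Over all genes tested the median was -0.0007.

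At an adjusted p-value under 0.05, edgeR's quasi-likelihood test with Benjamini-Hochberg adjustment over all genes called 0 of the 30 members and 0.0% of all genes. DESeq2 called 0 of the 30 as well, against 2.77% of the genes to which it gave an adjusted p-value. At an unadjusted p-value under 0.05 edgeR had 1 member lower, Hnrnph1, against 2.93% of all genes, and 0 members higher, against 6.47% of all genes. DESeq2 had 2 of 30 members at that level, Hnrnph1 and Hnrnpa2b1, a share no larger than the 6.7% of all genes. The smallest adjusted p-value in edgeR was 0.441 among the hnRNP genes and 0.587 among the SR protein genes. The data also bound the differences: the 95% interval of the fold change lay within 2-fold in either direction for 30 of 30 members, against 60.8% of all genes tested, and within 1.5-fold for 27. The exceptions to the latter were Hnrnph1, Hnrnph3 and Tra2a. These intervals hold for each gene singly, and they rest on the spread between 3 libraries per group. The median standard error was 0.12 for the members and 0.23 for all genes tested, and these sets were not matched for expression level.

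**Figure D1:**
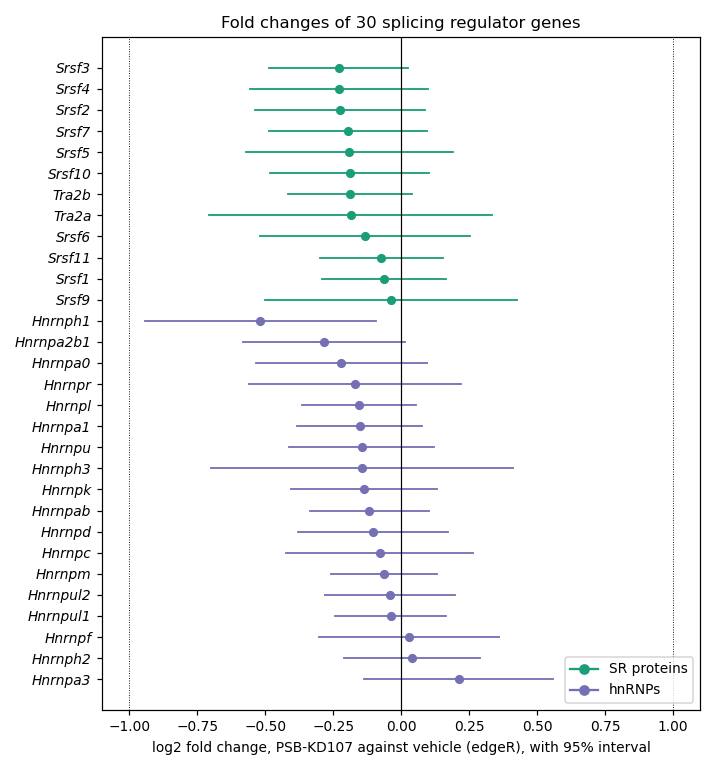
Log2 fold change of each of the 12 SR protein genes (green) and 18 hnRNP genes (violet), PSB-KD107 against vehicle, with its 95% interval from edgeR, and dotted lines at a 2-fold difference. All 12 SR protein points lie left of 0, and the interval of Hnrnph1 alone leaves out 0.

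All PSB-KD107 libraries were below all vehicle libraries for 7 of the 30 members (23.3%), against 6.59% of all genes tested: Tra2b, Hnrnpa1, Hnrnpa2b1, Hnrnpab, Hnrnph1, Hnrnpl and Hnrnpm. Only 1 of these, Tra2b, was an SR protein gene. No member had all PSB-KD107 libraries above all vehicle libraries, against 9.2% of all genes. The members and all genes tested were not matched for expression level here either.

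Among the SR proteins, Srsf3 encodes a small family member that also takes part in mRNA export (ENSMUSG00000071172, chr17:29032628-29043373 of GRCm38). Its level was 188.3, 208.8 and 209.2 CPM with vehicle and 162.5, 191.0 and 163.8 CPM with PSB-KD107. PSB-KD107 library 2 reached just above the lowest vehicle library, so that the groups overlapped. The log2 fold change was -0.23 ± 0.11 (SE, n = 3 per group), with an adjusted p-value of 0.587 in edgeR's quasi-likelihood test with Benjamini-Hochberg adjustment. Srsf2, a nuclear speckle protein, measured 186.9, 152.9 and 179.3 CPM with vehicle and 159.8, 155.7 and 128.9 CPM with PSB-KD107. Vehicle library 2 lay among the treated libraries, and the log2 fold change was -0.22 ± 0.13 (SE). Srsf2 shares exon bases with Mettl23 and Mfsd11 on the opposite strand, and the strand setting of the counting is not given in the sources used here. Srsf4, one of the SR proteins with a long arginine-serine tail, measured 57.5, 63.6 and 74.0 CPM with vehicle and 49.02, 58.5 and 59.0 CPM with PSB-KD107. Here the treated libraries 2 and 4 lay above vehicle library 1.

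Tra2b, an activator that binds GAA-rich enhancers, was the SR gene whose groups did not overlap. It measured 85.2, 91.6 and 97.5 CPM with vehicle and 75.3, 81.9 and 83.3 CPM with PSB-KD107, so that every treated library lay under vehicle library 1. Its log2 fold change of -0.19 ± 0.09 (SE) had an adjusted p-value of 0.611 in edgeR's quasi-likelihood test with Benjamini-Hochberg adjustment. Its paralog Tra2a varied most between the treated libraries, at 78.6, 113.6 and 71.1 CPM against 82.1, 104.7 and 112.6 CPM with vehicle. Its log2 fold change of -0.19 had the widest interval of the SR genes, from -0.71 to 0.33.

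The other SR protein genes overlapped between groups. Srsf5, an SR gene abundant in these cells, had 314.8 ± 55.8 CPM (SD, n = 3) with vehicle and 275.9 ± 29.4 CPM with PSB-KD107. Srsf7, a relative of Srsf3 with a zinc knuckle, had 85.6 ± 1.88 and 74.7 ± 10.2 CPM. Srsf10, which acts as a repressor when dephosphorylated, had 95.1 ± 11.6 and 83.3 ± 5.98 CPM. Srsf6 had 201.1 ± 14.6 and 183.2 ± 34.4 CPM, and its low treated mean came from library 4 (144.1 CPM), while libraries 1 and 2 (208.8 and 196.6 CPM) lay within the vehicle range. The log2 fold changes closest to 0 were those of Srsf11 (-0.07), Srsf1 (-0.06), the founding member of the family, and Srsf9 (-0.04), the least abundant in CPM.

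Hnrnph1 had the largest difference of all 30 genes. It encodes a protein that binds runs of G and can act as enhancer or silencer (ENSMUSG00000007850, chr11:50376990-50386528 of GRCm38). Its level was 198.0, 168.9 and 193.7 CPM with vehicle and 108.0, 120.0 and 163.6 CPM with PSB-KD107. The groups did not overlap, but the treated libraries spread widely, and library 4 (163.6 CPM) lay just under vehicle library 2. The log2 fold change was -0.52 ± 0.17 (SE, 95% interval -0.94 to -0.09), with an adjusted p-value of 0.441 in edgeR's quasi-likelihood test with Benjamini-Hochberg adjustment. The estimate ranged from -0.71 to -0.41 with each library left out in turn, and its unadjusted p-value in edgeR was above 0.05 without vehicle library 1 (0.0622) or 4 (0.0661) or PSB-KD107 library 1 (0.0663) or 2 (0.0708). The close relative Hnrnph2 measured 156.3, 138.9 and 140.7 CPM with vehicle and 163.2, 145.9 and 139.0 CPM with PSB-KD107, and Hnrnpf had 234.8 ± 22.6 and 239.5 ± 32.1 CPM. Hnrnph3, the least abundant hnRNP gene in CPM, had 23.3 ± 4.52 and 21.1 ± 5.04 CPM. The log2 ratio of Hnrnph1 to Hnrnph2, a pair compared after its values were seen, was 0.34, 0.28 and 0.46 in the vehicle libraries and -0.60, -0.28 and 0.24 in the treated libraries.

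The A/B and D group binds UAG-containing and AU-rich elements. Hnrnpa2b1 (ENSMUSG00000004980, chr6:51460932-51469894) was the most abundant of all 30 genes, at 1105, 943.7 and 1034 CPM with vehicle and 919.4, 843.2 and 769.4 CPM with PSB-KD107. All treated libraries were below all vehicle libraries, the nearest being treated library 1 and vehicle library 2. Its log2 fold change was -0.28 ± 0.12 (SE, 95% interval -0.58 to 0.01), with an adjusted p-value of 0.555 in edgeR's quasi-likelihood test with Benjamini-Hochberg adjustment. Hnrnpa1, the classic splicing silencer, measured 301.5, 278.2 and 279.6 CPM with vehicle and 246.4, 249.9 and 276.5 CPM with PSB-KD107. Treated library 4 lay just under the lowest vehicle library, and the log2 fold change was -0.15 ± 0.09 (SE). Hnrnpab measured 401.9, 386.3 and 414.3 CPM against 383.7, 373.8 and 351.3 CPM, again without overlap, and shares exon bases with Phykpl on the opposite strand. Hnrnpa0 measured 248.3, 226.4 and 244.7 CPM with vehicle and 184.4, 191.8 and 241.6 CPM with PSB-KD107. Its groups overlapped through treated library 4. Hnrnpd, which also regulates the decay of AU-rich mRNAs, had 154.3 ± 13.8 CPM with vehicle and 143.6 ± 13.2 CPM with PSB-KD107.

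Hnrnpa3 had the largest log2 fold change above 0, 0.21 ± 0.14 (SE). It measured 269.9, 216.7 and 223.0 CPM with vehicle and 304.8, 234.8 and 281.8 CPM with PSB-KD107, and the groups overlapped through vehicle library 1 and treated library 2. The log2 ratio of Hnrnpa2b1 to Hnrnpa3, also chosen after its values were seen, was 2.03, 2.12 and 2.21 with vehicle and 1.59, 1.84 and 1.45 with PSB-KD107.

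Of the remaining hnRNPs, Hnrnpl, which binds CA repeats, measured 332.3, 317.4 and 309.8 CPM with vehicle and 282.3, 298.1 and 281.2 CPM with PSB-KD107. The groups did not overlap, and the log2 fold change was -0.16 ± 0.09 (SE). Hnrnpm, which binds GU-rich sequence, also did not overlap between groups, at 306.9, 308.6 and 305.8 CPM against 297.2, 296.6 and 288.0 CPM. Its log2 fold change was -0.06 ± 0.08 (SE), with an adjusted p-value of 0.838 in edgeR's quasi-likelihood test with Benjamini-Hochberg adjustment. The coefficient of variation between the vehicle libraries was 0.466%, and Hnrnpm shares exon bases with March2 on the same strand. Hnrnpk, which binds C-rich RNA, had 604.0 ± 50.1 and 549.8 ± 32.8 CPM. Hnrnpc, which binds U tracts, had 211.9 ± 23.4 and 200.5 ± 27.5 CPM, and Hnrnpr had 138.1 ± 15.3 and 122.8 ± 21.7 CPM. The nuclear scaffold gene Hnrnpu had a log2 fold change of -0.15 and its relatives Hnrnpul1 and Hnrnpul2 of -0.04 each, and the groups of all of them overlapped.

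**Figure D2:**
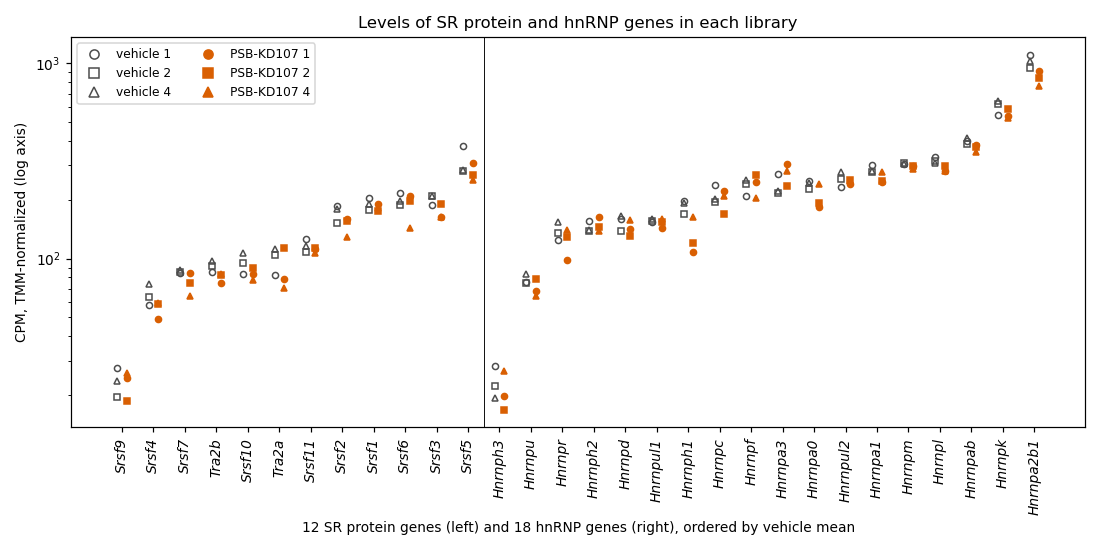
TMM-normalized CPM, on a log axis, of each gene in each of the 6 libraries, with open symbols for vehicle and filled symbols for PSB-KD107. Hnrnpa2b1 is the highest gene, near 1028 CPM with vehicle, and the groups overlap for 23 of the 30 genes.

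Per kilobase of coding-transcript exons, the vehicle level was highest for Hnrnpa2b1 (422.2 CPM per kb), Srsf5 (190.1), Hnrnpa1 (149.3), Hnrnpab (144.1) and Hnrnpk (131.6), and lowest for Hnrnpr (6.36), Hnrnph3 (9.52) and Hnrnpu (10.2). The exon length joins all coding transcripts of a gene and includes untranslated exons.

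The promoters shown are those of Hnrnph1, Hnrnpa2b1 and Srsf3, the hnRNP genes and the SR protein gene with the smallest p-values. The RefSeq sequences (GRCm38.p6) are given 5′ to 3′ on the strand of the gene, from upstream of the start site and without exons of coding genes, with capitals on matches on either strand to the motifs that the following paragraph spells out. The stretch of Hnrnph1 lies inside the longer span that GENCODE M21 gives this gene, outside its exons, and the other stretches end at the base before the annotated start.
Hnrnph1, chr11:50377547-50377718, plus strand: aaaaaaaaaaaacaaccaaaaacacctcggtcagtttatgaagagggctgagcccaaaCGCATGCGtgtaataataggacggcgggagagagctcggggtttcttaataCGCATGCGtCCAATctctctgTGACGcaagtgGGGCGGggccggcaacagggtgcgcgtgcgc
Hnrnpa2b1, chr6:51469895-51470095, minus strand: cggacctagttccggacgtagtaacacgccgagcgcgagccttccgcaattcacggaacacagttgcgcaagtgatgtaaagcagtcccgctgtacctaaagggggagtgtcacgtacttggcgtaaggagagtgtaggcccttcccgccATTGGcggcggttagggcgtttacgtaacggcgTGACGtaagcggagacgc
Srsf3, chr17:29032410-29032627, plus strand: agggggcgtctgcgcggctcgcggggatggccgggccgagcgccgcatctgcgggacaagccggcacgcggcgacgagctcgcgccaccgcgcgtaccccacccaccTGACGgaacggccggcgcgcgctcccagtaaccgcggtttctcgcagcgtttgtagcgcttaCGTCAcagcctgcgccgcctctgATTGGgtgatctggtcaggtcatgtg

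In the 250 bases upstream of the start, 29 of the 30 genes had a RefSeq promoter, and 7 motifs, none of which contains another, were searched on both strands. The printed stretches of Hnrnph1, Hnrnpa2b1 and Srsf3 hold 172, 201 and 218 of these bases. The counts can therefore include matches that are not shown, as with TATAAA for Srsf3. TGACG, the core of the cAMP response element, was found for 18 of 29 members (62.1%), against 27.0% of 10144 tested genes and 17.8% of all promoters. The GC box GGGCGG was found for 24 (82.8%, against 59.1% and 32.7%), and CCAAT for 17 (58.6%, against 36.2% and 33.8%). GCATGCG, the core of an NRF1 site, was found for 3 (10.3%, against 5.58% and 3.02%), and in the promoter of Hnrnph1 its matches overlap on both strands. The other motifs were CCGGAAG for 5 (17.2%, against 13.9% and 6.91%), TATAAA for 3 (10.3%, against 6.35% and 12.4%) and CACGTG for 2 (6.90%, against 8.37% and 6.02%). The member promoters had a median GC content of 63.6%, against 60.0% for tested genes. The promoters of members and of tested genes were picked by different rules. A member gave the promoter matching the most annotated transcript starts, and a tested gene its first entry by position. How far this choice contributes to the gaps was not tested. Such matches describe the sequence and do not show that a factor binds there.

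SR protein genes and hnRNP genes were compared as families. The summed level of the SR protein genes was 1722, 1574 and 1678 CPM with vehicle and 1537, 1536 and 1358 CPM with PSB-KD107, a mean of 1658 ± 76.0 CPM against 1477 ± 103.1 CPM (SD, n = 3). The hnRNP genes summed to 5090, 4825 and 5104 CPM with vehicle and 4610, 4540 and 4531 CPM with PSB-KD107. Neither sum overlapped between groups. The mean with PSB-KD107 differed from that with vehicle by -10.9% for the SR genes and by -8.92% for the hnRNP genes, or by -6.60% for the hnRNP genes without Hnrnpa2b1. The ratio of the hnRNP sum to the SR sum was 2.96, 3.07 and 3.04 with vehicle and 3.00, 2.96 and 3.34 with PSB-KD107, which overlapped. The sum of the differentiation markers was also lower in every treated library, and its part in these sums was not tested.

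**Figure D3:**
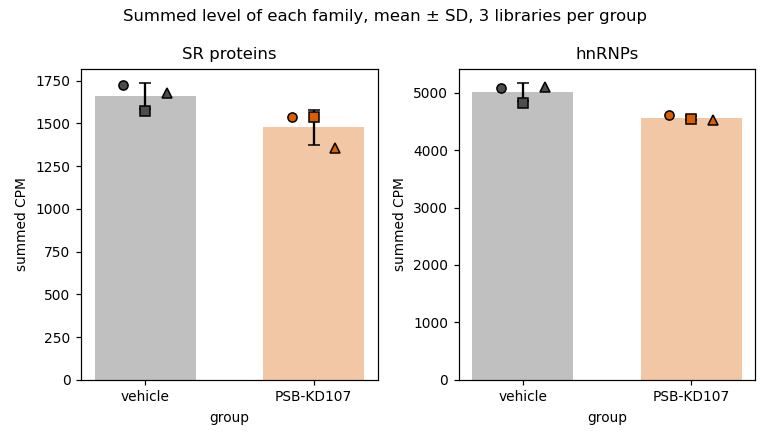
Summed CPM of the 12 SR protein genes and the 18 hnRNP genes, with bars for the mean, whiskers for the SD and points for the 3 libraries of each group. The PSB-KD107 points lie below the vehicle points in both panels, and treated library 4 is the lowest for the SR genes, at 1358 CPM.

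The treated libraries were ordered differently by different measures. The median deviation from the vehicle mean (log2) was -0.08, -0.13 and -0.29 for the SR genes in treated libraries 1, 2 and 4, and -0.14, -0.09 and -0.06 for the hnRNP genes. By this measure the SR genes were lowest in library 4, the library that stands apart, and the hnRNP genes in library 1, whereas the summed level was lowest in library 4 for both families. Treated library 4 was the lowest of all 6 libraries for 7 of 12 SR genes and 7 of 18 hnRNP genes, against 3 and 5 for treated library 1. The hnRNP median exceeded the SR median by 0.06 in log2 fold change, which became 0.02 without PSB-KD107 library 4, 0.04 without vehicle library 2 and 0.10 without PSB-KD107 library 2. Without both libraries numbered 4, the SR median was -0.095 and the hnRNP median -0.092. Because genes of a family are not replicates, no test was made of this difference.

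**Figure D4:**
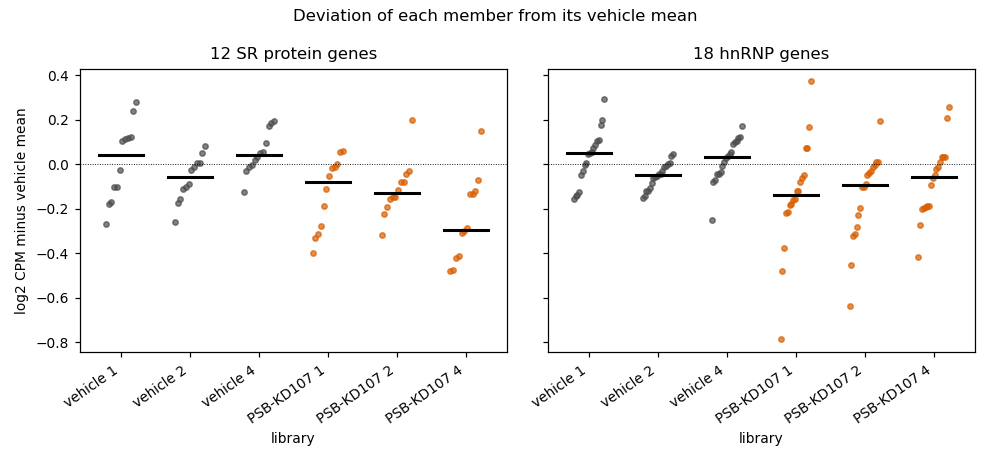
Log2 CPM of each gene minus its mean over the vehicle libraries, by library, with a line at the median of the 12 SR genes (left) or 18 hnRNP genes (right). The SR median is lowest in PSB-KD107 library 4, at -0.29, and the hnRNP median is lowest in PSB-KD107 library 1, at -0.14.

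Many SR protein genes hold poison exons, whose inclusion sends the transcript to nonsense-mediated decay and so lowers the protein. In GENCODE M21 at least 1 transcript subject to this decay was annotated for 11 of 12 SR genes (91.7%), with Srsf10 as the exception, and for 8 of 18 hnRNP genes (44.4%), against 28.4% of 12650 tested protein-coding genes. Transcripts with a retained intron were annotated for 10 SR genes (83.3%) and 12 hnRNP genes (66.7%), against 58.5%. Hnrnph1 had neither kind. Since the counts are per gene, productive and decaying transcripts could not be separated, and the levels above hold for their sum.

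The wider set of splicing regulators was examined with a list of 53 related genes, of which 50 were tested. Of these, 38 were lower and 12 higher with PSB-KD107, with a median log2 fold change of -0.15, close to that of the 30 members (-0.14). edgeR's quasi-likelihood test called 0 of them, against 0.0% of all genes. DESeq2 also called 0, against 2.77% of the genes to which it gave an adjusted p-value. At an unadjusted p-value under 0.05 in edgeR, 4 were lower (against 2.93% of all genes) and 0 higher (against 6.47%). These 4 were Rbm10, Rbm38, Matr3 and Srrm1. Rbm38, an RNA-binding target of p53 that takes part in muscle differentiation, measured 149.6, 147.1 and 148.5 CPM with vehicle and 99.6, 128.4 and 124.7 CPM with PSB-KD107. Its log2 fold change of -0.34 ± 0.12 (SE) had an adjusted p-value of 0.464 in edgeR's quasi-likelihood test with Benjamini-Hochberg adjustment. Matr3, a nuclear matrix protein, measured 257.2, 266.7 and 262.3 CPM against 223.3, 225.3 and 228.8 CPM, with little spread in either group. Srrm1, a coactivator that bridges SR proteins, measured 141.5, 133.6 and 155.2 CPM against 128.0, 119.3 and 120.1 CPM. The treated libraries of Rbm10 (log2 fold change -0.30), Rbm5 (-0.17) and Khdrbs1 (-0.15) were also all below the vehicle libraries, while those of Tardbp (-0.27) overlapped. In all, every treated library lay below every vehicle library for 6 of the 50 genes (12%), against 6.59% of all genes. The opposite order was found for 0 of them, against 9.2% of all genes.

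The kinases of SR proteins did not share a direction. The cytoplasmic kinase Srpk1 measured 51.1, 55.4 and 62.0 CPM with vehicle and 53.7, 50.5 and 40.3 CPM with PSB-KD107, whereas Srpk2 measured 91.5, 104.3 and 99.9 CPM against 103.9, 118.3 and 112.1 CPM. Their log2 fold changes were -0.22 and 0.18, and the groups overlapped for both. The nuclear CLK kinases had log2 fold changes of -0.18 (Clk1), 0.01 (Clk2), -0.20 (Clk3) and -0.19 (Clk4). None of these kinases passed the test, with adjusted p-values of 0.634 to 0.972 in edgeR's quasi-likelihood test with Benjamini-Hochberg adjustment.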

How the data were processed

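Poly(A) RNA was sequenced in paired-end mode with a directional kit, and the authors aligned the reads with STAR to the mouse genome mm10 and deposited raw counts per gene, without normalization. The counting program, its annotation and its strand setting are not given in the sources used here, so counts of overlapping or near-identical genes are uncertain. Groups were taken from the labels and the column names. The libraries numbered 4 match no single label, since these number the samples 1 to 3, and were assigned to their group only. P-values set the difference between groups against the spread between these libraries, which the fits estimate with information shared across genes.

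Counts were filtered with filterByExpr, scaled with TMM and tested with edgeR 4.0.16 (quasi-likelihood, R 4.3.3), with Benjamini-Hochberg adjustment over 14165 genes and a threshold of 0.05. DESeq2 1.42.0, RLE scaling, no filter, the number as a block and each library left out in turn were alternatives. Tables were made with pandas 2.3.3 in Python 3.11.15. The scripts were tested on simulated counts. Annotation came from GENCODE M21 (GRCm38), and promoters from RefSeq. The 30 members, the related genes and the marker lists were chosen with earlier results of these data known. Full values were given for the 4 SR protein genes and the 6 hnRNP genes with the smallest p-values and for those whose groups did not overlap. Of the related genes, the 8 with the smallest p-values and 6 kinases were named. Protein sequences were not used here.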

Additional observations from a re-analysis of the deposited data

How the results depend on the processing

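All genes tested gave 0 calls in edgeR, which became 8 with no filter on low counts, 407 with DESeq2 and 2456 (17.1% of the genes tested there) with the replicate number as a block on the 4 libraries numbered 1 and 2. That block was the one setting that called members, 3 of 30 in all: Hnrnpa0 (log2 fold change -0.34, adjusted p = 0.0212), Hnrnph1 (-0.69, adjusted p = 0.00376) and Hnrnph3 (-0.46, adjusted p = 0.0140), all lower. Members at an unadjusted p-value under 0.05 numbered 1 of 30 (9.40% of all genes), and became 2 with DESeq2 (6.70% of all genes), 2 with the block over all 6 libraries (12.2%), 12 with the block on 4 libraries (30.6%), 2 on these 4 libraries with no block (6.42%), and 0 to 2 with each library left out in turn (0 without vehicle library 4). The numbers are not shown to pair the libraries: deviations from the group means correlated by 0.63, 0.50 and -0.13 across genes for the numbers 1, 2 and 4, against a mean of -0.17 for different numbers, among which vehicle library 4 with PSB-KD107 library 2 reached 0.64. Both libraries numbered 1 were also low in Xist (253 and 373 counts), against 10047 to 14091 in the others. The methods name 3 different mice and do not say whether each gave cells to both groups. The block over all 6 libraries called 0 members and 0.0% of all genes.

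The hnRNP median of -0.13 became -0.092 on the 4 libraries with or without the block. The SR median of -0.19 became -0.093 with the block and -0.095 without it, the related median of -0.15 became -0.051 and -0.060, and the hnRNP minus SR difference of 0.06 became 0.0015 and 0.0033. On these 4 libraries Tra2a changed sign to 0.026 with the block and 0.040 without it, and Hnrnpul2 to 0.014 and 0.013. Over the fits without a single library, the SR median ranged from -0.21 to -0.13, the hnRNP median from -0.16 to -0.092, their difference from 0.02 to 0.10, the related median from -0.18 to -0.10 and the number of members lower from 25 to 29. Signs turned for Srsf6 (-0.26 to 0.011), Srsf9 (-0.17 to 0.084), Hnrnpc (-0.18 to 0.021), Hnrnpf (-0.064 to 0.13), Hnrnph2 (-0.044 to 0.090), Hnrnph3 (-0.35 to 0.012) and Hnrnpul2 (-0.11 to 0.021). The cause was not tested. All 30 genes lay far above the floor of 3 counts in every library.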
